A study of Cavia porcellus with 13 samples.

Results

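Genes of the skeletal muscle fibre were followed in guinea pig skin at tick bites, with the genes of fast fibres set against those of slow fibres. Of 45 listed genes, 41 were found by symbol in a table of 26855 genes, and all 41 passed the filter on low values (at least 1 TPM in at least 2 libraries). They comprise 13 genes of fast fibres, 7 of slow fibres, 12 shared by fibre types, 5 of muscle metabolism and 4 regulators. MYH2, MYH4, TTN and TPM2 were not analysed here.

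Skin of rodents lies on a thin sheet of striated muscle, the panniculus carnosus, so a full-depth skin biopsy can carry muscle RNA. A muscle fibre assembles its contractile apparatus from isoforms that differ between fast and slow fibres, among them the myosin heavy and light chains, the 3 troponin subunits and the myosin-binding proteins. Fast fibres also hold much parvalbumin, a soluble calcium buffer that speeds relaxation, and rely more on glycogen and glycolysis, whereas slow fibres rely more on oxidative metabolism and myoglobin.

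RNA of 13 skin libraries was sequenced, all with 4 days after the tick bite as their time point. Naive skin (3 libraries) had no bite. Bitten skin came from a first exposure (3 libraries), from bites on skin labelled saliva immune (3 libraries, the way of immunization not being given), and from skin labelled with 2 bites (2 libraries) or 3 bites (2 libraries). The labels give no strain, genotype or age. Nothing in them states whether the libraries of a group are separate animals, and the p-values therefore describe the variation among these libraries alone, part of which may be technical. Titles begin with CK1 or EF19-5, prefixes without an explanation that were treated as 2 experiments: CK1 holds first exposure, saliva immune and naive 1 and 2, and EF19-5 holds 2 bites, 3 bites and naive 3. Values are TPM, a length-scaled share of each library, so levels can be compared between genes, but the depth behind them is unknown. In bulk skin, fewer fibres and less RNA per fibre cannot be told apart.

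The 41 genes together made up 10.3%, 17.9% and 2.56% of the naive libraries 1, 2 and 3, and from 0.703% (2 bites 1) to 11.2% (saliva immune 2) of the bitten ones. Muscle content thus spanned a wide range within naive skin alone. The defining genes of skeletal muscle in the table were present in every library at differing levels. ACTA1, the skeletal actin, ranged from 1211 to 33911 TPM, CKM from 685 to 25512 and NEB from 32.9 to 1324.5. None of the 41 genes was listed at 0 in any library.

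The log2 difference between bitten and naive skin was negative for 12 of 13 fast-fibre genes, all but MYH1, and for 1 of 7 slow-fibre genes. The fast genes summed to 5.00%, 8.79% and 1.29% of the naive libraries and to 2.79%, 2.13% and 2.99% of first exposure. They summed to 3.80%, 4.35% and 1.21% of saliva immune, to 0.272% and 0.408% of 2 bites, and to 0.810% and 0.383% of 3 bites libraries. The slow genes summed to 0.242%, 0.338% and 0.0759% of the naive libraries and to 0.493%, 0.338% and 0.655% of first exposure. In EF19-5 the slow sum was nearly flat, between 0.0634% and 0.0688% in the 4 bitten libraries. As a share of the slow and fast genes together, slow transcripts took 4.62%, 3.71% and 5.56% in naive skin and 7.42% to 18.9% in bitten skin, so the naive and bitten libraries did not overlap. The bitten libraries nearest to naive were saliva immune 3 (7.49%) and 3 bites 1 (7.42%), and the other 8 lay at 13.7% or above. The slow share is a score over chosen genes and was given no test. In naive skin MYBPC1 was the largest part of the slow sum, at 1313, 2100 and 350 TPM. The next slow gene, TNNT1, stood at 291, 340 and 154.

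Parvalbumin was the 1 member that passed the test on the TPM scale. PVALB stood at 1473 and 2568 TPM in the naive CK1 libraries and at 772 in the naive EF19-5 library. First exposure libraries held 561, 416 and 308 TPM and saliva immune libraries 351, 439 and 497. The 2 bites libraries held 152 and 351, and the 3 bites libraries 425 and 218. Every bitten library lay below every naive one. Among all genes tested, 0.28% had every bitten library below every naive library, and PVALB was the 1 member of 41 that did. PVALB fell by 1.97 on the log2(TPM + 1) scale (SE 0.290, limma adjusted p = 0.0413), a 3.93-fold lower level in 10 bitten than in 3 naive libraries. The test called 1 of 41 members, against 0.0401% of the 14979 genes tested, and 19 members and 2366 genes had an unadjusted p under 0.05. PVALB was chosen with its earlier result in these data known. Its call and its lack of overlap are therefore a description and not independent support. The median log2 difference over all genes was 0.10. PVALB was not called without naive 2 (log2 difference -1.68, adjusted p = 0.318), and in 6 further cases the call was lost when a single library was left out: first exposure 2 or 3, saliva immune 1, 2 or 3, or naive 1. Without 3 bites 1 the count of members called was 6, with 0.208% of all genes called.

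ACTN3, the fast-fibre alpha-actinin that anchors thin filaments at the Z-disc, stood at 2671, 4846 and 544 TPM in naive 1, 2 and 3. It stood at 696, 491 and 774 in first exposure and at 857, 1368 and 617 in saliva immune. The 2 bites libraries held 55.9 and 69.1 TPM and the 3 bites libraries 333 and 77.1. Within each experiment all bitten libraries lay below the naive ones, but across experiments the groups overlapped because naive 3 lay below most CK1 bitten libraries. Its log2 difference was -2.31 (SE 0.439, limma adjusted p = 0.0729), which missed the threshold.

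PRKAG3, a regulatory gamma subunit of the energy sensor AMP-activated protein kinase found mainly in fast fibres, was a low transcript with a large difference. Naive libraries held 48.7, 83.7 and 11.8 TPM, first exposure 6.23, 5.15 and 5.57, and saliva immune 9.90, 12.8 and 11.6. The 2 bites libraries held 0.919 and 1.23 TPM, and the 3 bites libraries 9.63 and 1.13. In CK1 the bitten libraries lay far below the naive ones, and in EF19-5 the library 3 bites 1 lay close to its naive library. The log2 difference was -2.56 (SE 0.457, limma adjusted p = 0.0729).

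**Figure D1:**
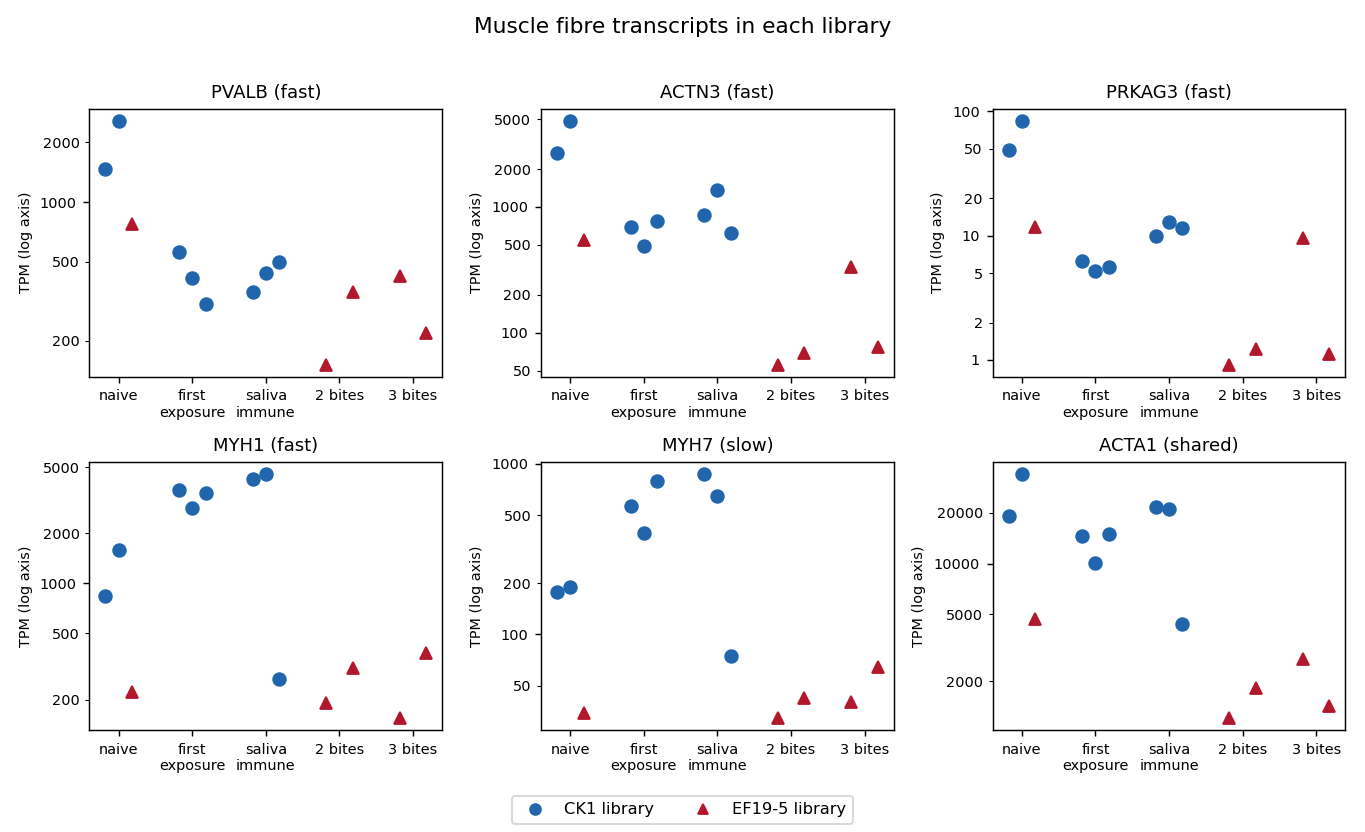
TPM of 6 fibre genes in each library (vertical log axis, TPM) by group (horizontal axis), 1 point per library, circles for CK1 and triangles for EF19-5. PVALB is lower in every bitten library (152 to 561) than in any naive one (772 to 2568), while MYH1 and MYH7 are higher in 5 of 6 bitten CK1 libraries than in naive CK1 skin.

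Among the contractile genes of fast fibres, MYBPC2, the fast myosin-binding protein C, had the largest negative difference: -2.69 (SE 0.620, limma adjusted p = 0.113). It stood at 877, 1554 and 233 TPM in naive skin, at 81.9, 75.6 and 103 in first exposure, and at 123, 560 and 228 in saliva immune. The 2 bites libraries held 35.8 and 30.2, and the 3 bites libraries 196 and 32.2. TNNT3, the fast troponin T that ties the troponin complex to tropomyosin, differed by -1.96 (SE 0.392, adjusted p = 0.0789). The fast regulatory light chain MYLPF differed by -1.60, the fast inhibitory troponin TNNI2 by -1.46, the fast calcium-binding troponin TNNC2 by -1.34 and the fast essential light chain MYL1 by -1.17. ATP2A1, the pump SERCA1 that returns calcium to the sarcoplasmic reticulum, differed by -1.44, CASQ1, its calcium store protein, by -1.24, and the Z-disc protein MYOZ1 by -1.22. In all, 12 of 13 fast genes had a negative difference (median -1.46), against a median of 0.10 over all genes tested, and 1 was called.

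MYH1, the heavy chain of type IIx fast fibres, went the other way. It stood at 839, 1597 and 221 TPM in naive skin. First exposure libraries held 3615, 2830 and 3489 TPM, saliva immune libraries 4246, 4526 and 266, 2 bites libraries 191 and 311, and 3 bites libraries 155 and 383. All CK1 bitten libraries except saliva immune 3 lay above both naive CK1 libraries, and the EF19-5 libraries fell on both sides of naive 3. Its log2 difference of 0.73 (SE 0.686, limma adjusted p = 0.628) did not pass. MYH1 belongs to a cluster of fast and developmental myosin heavy chain genes that are closely alike in sequence, and how reads were shared among them is not given in the sources used here, so the level of MYH1 is uncertain.

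Of the 7 slow-fibre genes 0 were called by limma, and 0 of 7 had an unadjusted p under 0.05. MYH7, the slow myosin heavy chain, stood at 177, 190 and 34.9 TPM in naive skin. It stood at 568, 392 and 789 in first exposure, at 868, 646 and 75.3 in saliva immune, at 32.4 and 42.3 in 2 bites, and at 40.2 and 64.8 in 3 bites. In CK1, 5 of the 6 bitten libraries lay above both naive ones and saliva immune 3 lay below them. The log2 difference was 0.94 (SE 0.562, limma adjusted p = 0.429). The slow regulatory light chain MYL2 differed by 0.98 (SE 0.601), the slow essential light chain MYL3 by 0.84, and the slow troponins TNNT1, TNNC1 and TNNI1 by 0.59, 0.51 and 0.42. MYBPC1, the slow myosin-binding protein C, differed by -0.17. The median over the 7 genes was 0.59, with 6 of 7 positive. Several of these genes also belong to the heart. Of the 6 cardiac markers in the table, NPPA was listed at 0 in all 13 libraries, MYBPC3 in 11, and RYR2 reached at most 0.0369 TPM. TNNI3 was present in every library at 6.47 to 12.1 TPM and TNNT2 at 0.190 to 3.91. MYH6 stood at 1.16 and 1.25 TPM in naive CK1 skin, at 7.24, 1.88 and 5.35 in first exposure, and at 5.79, 4.29 and 0.622 in saliva immune. The 6 markers summed to 0.000852% to 0.00128% of naive and 0.00105% to 0.00178% of bitten libraries, and their part in the slow genes' values was not tested.

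The median of the genes shared by fibre types lay between those of the fast and the slow lists, while single genes of the lists overlapped. Of 12 shared genes, 11 had a negative difference and 0 were called, with a median of -0.86. CKM, the muscle creatine kinase, differed by -1.50 (SE 0.378), the actin ACTA1 by -1.15, the Z-disc protein LDB3 by -1.15 and the voltage sensor of the calcium channel, CACNA1S, by -0.97. The giant thin-filament ruler NEB and the calcium release channel RYR1 differed by -0.90 and -0.84. SMPX (-0.21), a small muscle protein, and MYOT (-0.51), the Z-disc protein myotilin, had the smallest negative differences, and ACTN2, the alpha-actinin of all fibres and the counterpart of ACTN3, differed by 0.13 (SE 0.535). Thus the 2 alpha-actinins differed from naive skin by -2.31 and 0.13. The value of ACTN2 combined opposite directions, 0.54 in CK1 and -0.64 in EF19-5, whereas ACTN3 was lower in both, by -2.24 and -2.43.

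The metabolic genes divided in the same way. AMPD1, the AMP deaminase of muscle, differed by -1.65, the glycogen phosphorylase PYGM by -1.43, and the glycolytic enzymes PGAM2 and ENO3 by -1.31 and -0.87. MB, the oxygen-binding myoglobin, differed by 0.46 (SE 0.556). Naive libraries held 677, 985 and 155 TPM of MB and first exposure libraries 1442, 817 and 1641. Of the regulators, the transcription factor MYF6 differed by -0.91, the atrophy-linked ubiquitin ligases TRIM63 and FBXO32 by -0.71 and -0.26, and myogenin, MYOG, by -0.18, at 1.13 to 6.10 TPM. None of these 9 genes was called.

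**Figure D2:**
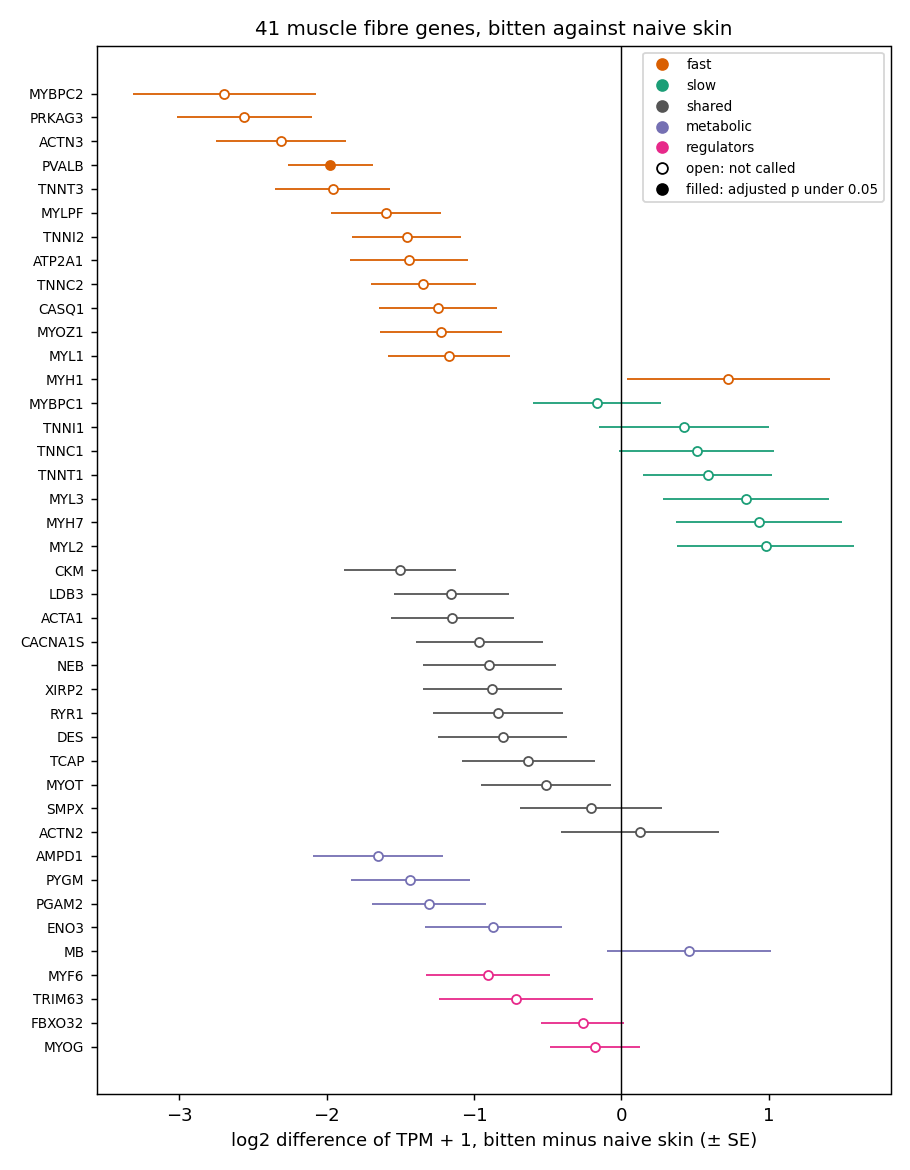
Difference between bitten and naive skin for the 41 genes (horizontal axis, log2(TPM + 1) difference from limma with its SE; 10 bitten against 3 naive libraries), grouped by list. Fast genes lie between -2.69 and -1.17 apart from MYH1 at 0.73, slow genes lie between -0.17 and 0.98, and PVALB is the 1 filled point.

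Whether the fast genes differed by more than the muscle content did was asked in 3 ways. Each gene was first set against the summed TPM of all 41 genes, which differed by -1.06 on the log2 scale between bitten and naive skin in CK1 and by -1.40 in EF19-5. Fast genes themselves made up much of that sum, 5.00 of 10.3% of the library in naive 1. In CK1, 11 of 13 fast genes, 0 of 7 slow, 1 of 12 shared, 3 of 5 metabolic genes and 0 of 4 regulators were lower by more than the sum. In EF19-5 the counts were 11 of 13 fast, 0 of 7 slow, 4 of 12 shared, 3 of 5 metabolic and 0 of 4 regulators. CASQ1 was counted there by a very small margin, at -1.4027 against -1.4024 for the sum. Single genes were on log2(TPM + 1), whereas the sum was on log2(TPM). No share over all genes was computed for these counts, and those of EF19-5 rest on 1 naive library. PVALB was lower by 2.21 in CK1 and by 1.54 in EF19-5, PRKAG3 by 2.84 and 2.03, and ACTN3 by 2.24 and 2.43.

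As a percent of the summed TPM of the 41 genes, ACTN3 took 2.59%, 2.70% and 2.12% in naive 1, 2 and 3. It took 1.02%, 0.988% and 1.01% in first exposure, 0.849%, 1.22% and 2.40% in saliva immune, 0.795% and 0.754% in 2 bites, and 2.04% and 0.913% in 3 bites. All bitten libraries of an experiment lay below its naive ones, with saliva immune 3 and 3 bites 1 closest. On this scale 5 of 13 fast genes in CK1 (ACTN3, PRKAG3, MYLPF, TNNI2, ATP2A1) had every bitten library below both naive ones, against 0.194% of all genes. In EF19-5, 6 of 13 did (ACTN3, MYLPF, TNNC2, TNNI2, TNNT3, MYOZ1), against 0.461% of all genes. Because the muscle sum was lower in bitten skin, genes that do not follow muscle tend to rise on this scale. The low shares over all genes are therefore a weak background for the fast genes. Of the 12 shared genes 0 lay below in CK1 and 0 in EF19-5. PVALB was in neither set of fast genes. It took 1.43% of the muscle sum in both naive CK1 libraries and 0.820%, 0.837%, 0.403%, 0.348% and 0.393% in 5 bitten ones, but 1.94% in saliva immune 3. In EF19-5 it took 3.01% in naive 3 and 2.16%, 3.84%, 2.61% and 2.58% in the 4 bitten libraries, so there the naive library lay within the bitten range.

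All 7 slow genes had every bitten library above the naive ones in both experiments on this scale. In CK1 the background was 21.9% of all genes. In EF19-5 it was 88.4%, so the count for the slow genes there is near that of the whole table. MYH1 was the 1 fast gene above in both: it took 0.815%, 0.891% and 0.864% of the muscle sum in naive skin and 0.953% to 5.69% in bitten skin.

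Each gene was next divided by the geometric mean of the 12 shared genes of its library. On this scale PVALB stood at 1.72, 1.73 and 4.06 in naive 1, 2 and 3 and at 0.676, 0.758 and 0.315 in first exposure. Saliva immune libraries stood at 0.292, 0.337 and 2.10, 2 bites at 2.17 and 4.29, and 3 bites at 3.03 and 3.01. The values of saliva immune 3 and of 2 bites 2 lay above the naive libraries of their experiments. PVALB differed by -1.19 in log2 (SE 0.533, limma adjusted p = 0.267), ACTN3 by -1.53, PRKAG3 by -1.77 and MYBPC2 by -1.91 (adjusted p = 0.136, the lowest of the members). The slow genes differed by 0.62 (MYBPC1) to 1.76 (MYL2), MYH1 by 1.51 and MB by 1.25. The limma test called 0 of the 29 members outside the shared list, against 0.374% of all genes, and 13 of the 29 had an unadjusted p under 0.05. Without saliva immune 3 the limma test called 12 members and 1.83% of all genes, with PVALB at -1.42 (adjusted p = 0.0483). Without saliva immune 2 it called 1 member, with the same share of all genes. The median over all genes was 0.88 on this scale, so the slow median of 1.37 is to be read against that value. The fast median of -0.67 lies below it, but so would a gene that exactly follows the shared list.

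In the last of these ways the shared level entered the model as a covariate in place of being subtracted. PVALB then differed by -1.94 (SE 0.334, limma adjusted p = 0.0980), TNNC2 by -0.72 and MYL3 by 1.77, both with the same adjusted p, and 0 of 29 members were called in bitten against naive skin, where 0.0134% of all genes were. In first exposure against naive skin the covariate fit called 7 of 29 members, with 0.648% of all genes. This fit was added once the data had been seen, and its calls depended on single libraries, as given in the closing section.

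**Figure D3:**
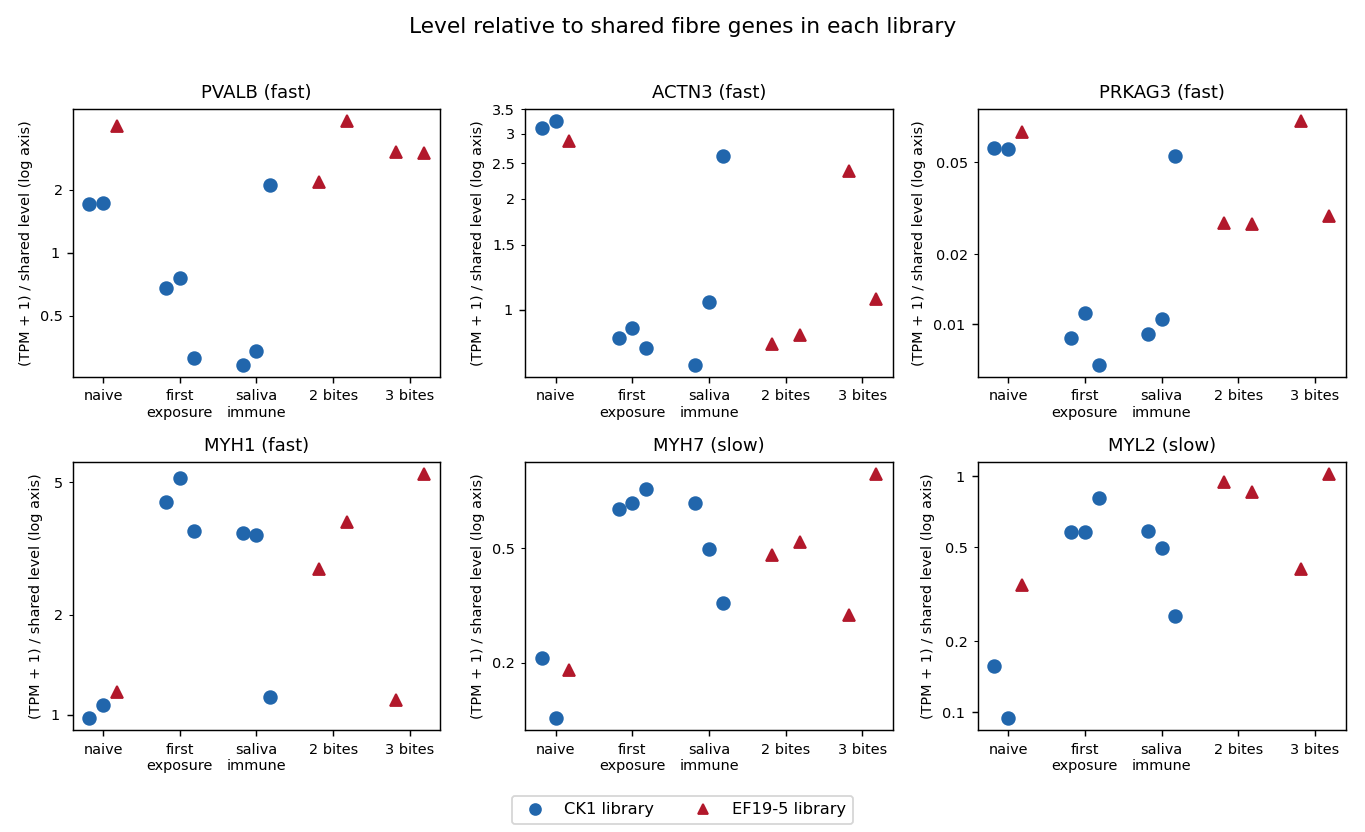
TPM + 1 of 6 genes divided by the geometric mean of 12 shared fibre genes of the same library (vertical log axis, a ratio without unit) by group, 1 point per library, circles for CK1 and triangles for EF19-5. Saliva immune 3 and 3 bites 1 lie beside the naive libraries in the panels of ACTN3, PRKAG3 and MYH1, and the EF19-5 values of PVALB (2.17 to 4.29) surround those of naive 3 (4.06).

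Pairing each slow isoform with the fast isoform of the same function gave a ratio within each library, in which muscle content cancels only as far as both isoforms come from the muscle. TNNC1 made up 3.37%, 2.29% and 4.83% of the calcium-binding troponin pair in naive skin. It made up 14.1%, 12.6% and 15.5% in first exposure, 12.8%, 10.1% and 5.01% in saliva immune, 14.7% and 11.6% in 2 bites, and 6.36% and 15.2% in 3 bites. Every bitten library exceeded every naive one. MYL2 made up 1.64% ± 0.589 of its pair with MYLPF in naive skin (SD, n = 3) and 9.55% ± 3.97 in bitten skin (n = 10), and MYL3 2.80% ± 0.548 and 10.7% ± 3.67 of its pair with MYL1. TNNI1 made up 1.97% ± 0.564 and 7.22% ± 2.76 of its pair with TNNI2, and TNNT1 5.95% ± 3.10 and 27.9% ± 12.6 of its pair with TNNT3. In these 5 pairs the bitten libraries lay above every naive library of their experiment in 6 of 6 and 4 of 4 cases. MYBPC1 made up 57.5% to 60.0% of its pair in naive skin and 59.3% to 96.2% in bitten skin, above naive in 6 of 6 and 3 of 4. The heavy chains had less of a gap: MYH7 made up 13.9% ± 3.39 of MYH7 and MYH1 in naive skin and 15.7% ± 3.61 in bitten skin, with 2 of 6 bitten libraries above the naive ones in CK1 and 3 of 4 in EF19-5. No share over all gene pairs was computed for these counts. For single genes on the TPM scale, 10.6% of all genes had every bitten library above the naive ones in CK1 and 16.9% in EF19-5. The pairs come from the same libraries and are not independent results.

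**Figure D4:**
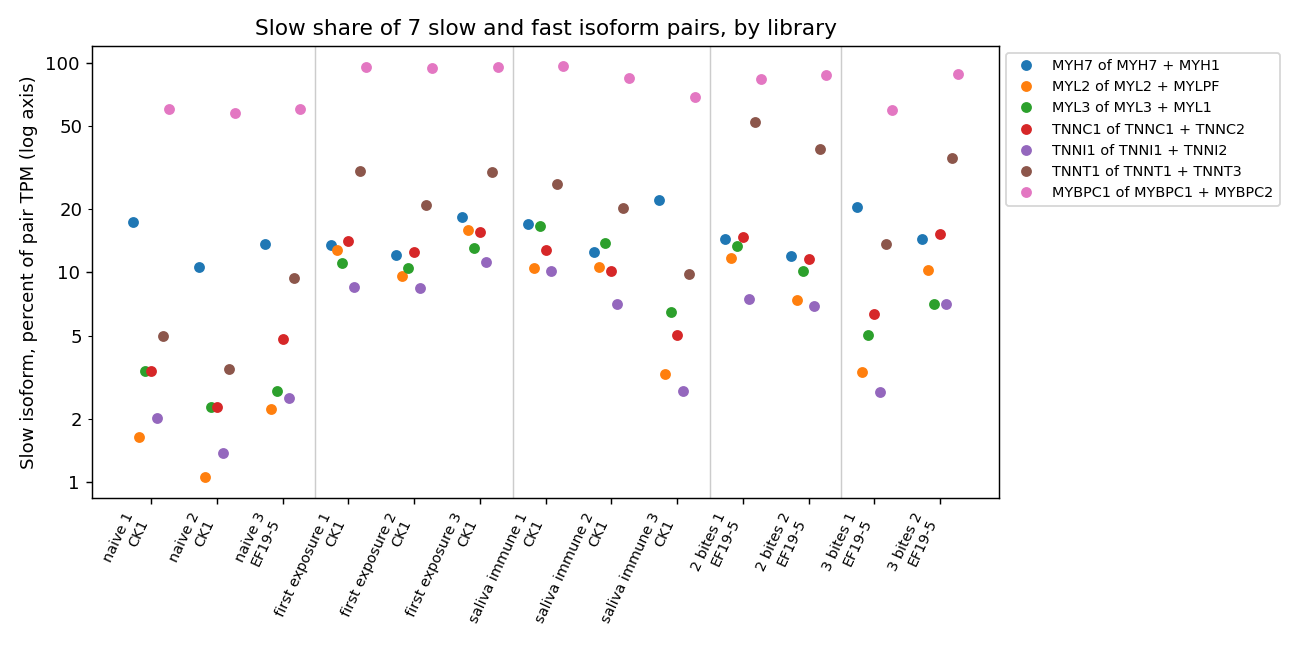
Slow isoform as a percent of the summed TPM of a slow and a fast isoform (vertical log axis, percent) in each library, with 1 colour per pair and vertical lines between groups. In 6 of the 7 pairs most bitten libraries stand above the naive ones, with saliva immune 3 and 3 bites 1 nearest to naive, while the MYH7 and MYH1 pair stays between 10.6% and 22.0% throughout.

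The mean log2(TPM + 1) of the fast list exceeded that of the slow list by 3.14, 3.69 and 2.89 in naive skin. The excess was 0.69, 0.88 and 0.28 in first exposure, 0.43, 1.03 and 2.42 in saliva immune, 0.75 and 1.11 in 2 bites, and 2.46 and 1.00 in 3 bites. The bitten libraries all lay below the naive ones. The difference between bitten and naive skin was -2.15. The residual SD between libraries within group and experiment was 0.71, which describes single libraries and is no test of that difference. The lists were chosen with earlier results known, and the score was given no test.

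Within the experiments, CK1 had 13 of 41 members with all 6 bitten libraries below both naive ones on the TPM scale (ACTN3, AMPD1, ATP2A1, CASQ1, CKM, MYBPC2, MYL1, MYLPF, PRKAG3, PVALB, TNNC2, TNNI2, TNNT3), against 5.02% of all genes. Of these, 11 are fast genes. In EF19-5, 33 of 41 members lay below the single naive library in all 4 bitten ones, against 15.3% of all genes, and MB and MYL3 lay above it in all 4, against 16.9%. On the TPM scale the 7 slow genes were all positive in CK1 (median 0.87), whereas in EF19-5 4 of 7 were positive with a median of 0.02. The fast medians were -1.38 and -1.56. The difference between the experiments was itself tested: the limma interaction called 0 of 41 members and 0% of all genes, with 0 members and 421 genes at an unadjusted p under 0.05 and a single adjusted p of 0.999 for the members. It rests on 1 naive library in EF19-5.

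**Figure D5:**
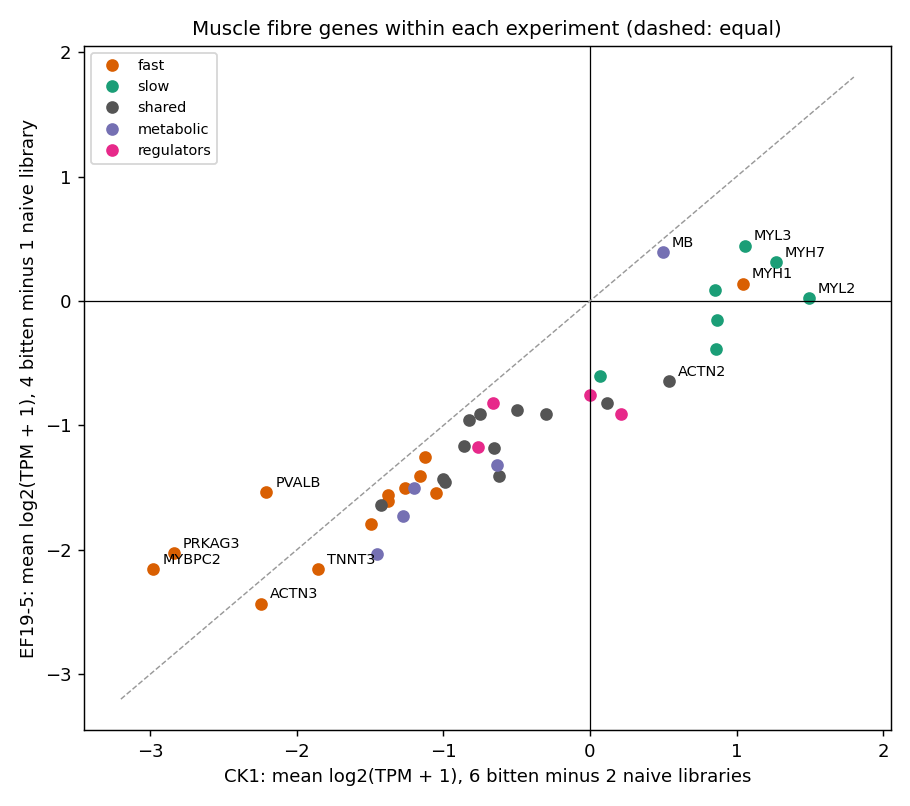
Difference of mean log2(TPM + 1) between bitten and naive libraries in CK1 (horizontal axis, 6 against 2 libraries) and EF19-5 (vertical axis, 4 against 1), 1 point per gene and 1 colour per list. Fast genes other than MYH1 lie at the lower left in both, slow genes reach up to 1.49 in CK1 (MYL2) and lie between -0.60 and 0.44 in EF19-5.

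By treatment, 0 members were called in any single group against naive skin on the TPM scale. All 4 comparisons draw on the same naive libraries within an experiment and are not independent. In first exposure the test called 0.0334% of all genes and 13 members had an unadjusted p under 0.05. PRKAG3 differed by -3.29 (SE 0.526, limma adjusted p = 0.113), MYBPC2 by -3.74 (SE 0.724), ACTN3 by -2.49 and PVALB by -2.22. Without either 3 bites library 1 member was called in first exposure skin, with 0.0871% of all genes, and 1 in saliva immune skin, with 0.0402%. The slow genes were positive in 7 of 7 (median 1.18). In saliva immune skin, where 0.00668% of all genes were called and 9 members had an unadjusted p under 0.05, PRKAG3 differed by -2.39, PVALB by -2.19, MYBPC2 by -2.21 and ACTN3 by -2.00, and the slow median was 0.68.

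In 2 bites skin, where 0.0134% of all genes were called, 12 members had an unadjusted p under 0.05. ACTN3 differed by -3.11 (SE 0.741, limma adjusted p = 0.700), TNNT3 by -2.70 and PVALB by -1.73, with a slow median of 0.06. In 3 bites skin, where 0.00668% of all genes were called, 3 members had an unadjusted p under 0.05: ACTN3 at -1.75, TNNT3 at -1.61 and PVALB at -1.34, with a slow median of -0.12. Both contrasts have naive 3 as their single control of the same experiment, and its spread was borrowed from the other groups.

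Between bitten groups of the same experiment, limma called 0 members and 0% of all genes. Saliva immune against first exposure skin had 1 member at an unadjusted p under 0.05, MYBPC2 at 1.53 (SE 0.647), where the saliva immune libraries spread from 123 to 560 TPM. Against 2 bites, 3 bites skin had ACTN3 at 1.36 (SE 0.605), where 3 bites 1 held 333 TPM and the other 3 libraries 55.9 to 77.1.

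Other muscle genes outside the 41 mostly divided in the same direction. Of 13 further fast or glycolytic genes all 13 had a negative difference (median -1.14), among them phosphofructokinase PFKM (-0.91), the fructose bisphosphatase FBP2 (-0.67) and the fast light chain kinase MYLK2 (-1.38). Of 13 further slow genes, 11 were positive (median 0.69), with the slow calcium pump ATP2A2 at 0.40. Of 21 further muscle genes, of the sarcomere and of other parts of the fibre, 19 were negative (median -0.82). ATP2A2 stood at 154 TPM in naive 3 and at 154 to 187 in the bitten EF19-5 libraries. The 41 genes summed to 2.56% and to 0.703% to 1.63% of the same libraries, so ATP2A2 did not follow that sum there. How much of the RNA of the further slow genes came from muscle was not tested. None of these further genes was called on the TPM scale. HSPB6, the further slow gene with the highest mean TPM, was not higher in bitten skin. It stood at 1473, 2508 and 401 TPM in naive skin, and at 1490, 1051 and 1584 in first exposure. Saliva immune libraries held 2441, 1583 and 282 TPM, 2 bites libraries 137 and 202, and 3 bites libraries 252 and 160. Relative to the shared genes, limma called CSRP3 (2.70, adjusted p = 0.0098), the muscle LIM protein of the Z-disc, and MYOZ2 (2.32, adjusted p = 0.0282), the slow counterpart of MYOZ1, as higher. MYOM3, a myomesin of the M-band (2.22, adjusted p = 0.0443), and MYBPH, a myosin-binding protein (2.75, adjusted p = 0.0216), were also called by limma. On this scale 56 genes (0.374% of all genes) were called, 55 of them as higher, and the median over all genes was 0.88. MYBPH was a very low transcript in naive skin, at 0.438, 0.118 and 1.75 TPM, with 56.7, 5.71 and 12.1 in first exposure and 0.943 and 0.406 in 3 bites. MYOZ2 stood at 24.3, 26.6 and 15.5 TPM in naive skin and at 203, 98.3 and 270 in first exposure. It stood at 15.6 in saliva immune 3 and at 12.9 and 16.9 in 3 bites. MYOM3 stood at 20.2 and 23.6 TPM in naive CK1 skin, at 144, 66.1 and 128 in first exposure, and at 10.2 in saliva immune 3. In EF19-5 it stood at 3.59 in naive and 6.16 to 9.14 in bitten skin. CSRP3 stood at 11.9, 14.2 and 15.5 TPM in naive skin, at 248, 60.4 and 220 in first exposure, and at 237, 87.0 and 8.02 in saliva immune. The 2 bites libraries held 37.1 and 39.0 and the 3 bites libraries 9.61 and 12.4, so saliva immune 3 and both 3 bites libraries lay at or below the naive level.

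Over the 13 libraries, the 5 non-members most like PVALB by Pearson correlation of log2(TPM + 1), among 9730 genes with a symbol and a mean of at least 5 TPM, were GRAMD1B (0.946), MSTN (0.895), AMOT (0.889), PLEKHB1 (0.887) and MAPRE3 (0.887). MSTN encodes myostatin, a muscle-made inhibitor of muscle growth, and had 61.4 TPM on average in naive and 12.5 in bitten skin. Among the members PRKAG3 (0.918), MYBPC2 (0.854) and ACTN3 (0.824) were closest, and MYL2 (-0.01) and MYH1 (0.167) were among the least alike. The libraries share groups, experiments and muscle content, so these values are a description.

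Markers of other cell types were summed in the same libraries. The 8 adipocyte markers made up 0.0562% to 0.113% of naive and 0.244% to 0.737% of bitten libraries in CK1, and in EF19-5 0.234% of the naive and 0.121% to 0.309% of the bitten ones. The 4 epidermal markers in the table made up 0.909% to 2.29% of naive and 1.36% to 4.82% of bitten libraries over both experiments. The 8 macrophage markers made up 0.00911% to 0.0211% and 0.0119% to 0.0907%. Smooth muscle markers without DES summed to 0.0337% to 0.0517% in naive and 0.0303% to 0.0547% in bitten libraries. Their part in the results was not tested.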

How the data were processed

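The values are TPM as the authors deposited them in 1 table, each library in its own column. The submitters' processing notes list the tools Trimmomatic, StringTie and DESeq, without versions or roles. Aligner, build and annotation: not given in the sources used here. Since TPM values are relative, a shift in an abundant tissue moves every other gene, and depth is unknown.

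Of 26855 genes, 18254 carry a symbol, and members were matched by symbol. The members, gene lists and tests were chosen with earlier results of these data known. The 14979 genes reaching 1 TPM in 2 or more libraries entered limma 3.58.1 (R 4.3.3, with the package data.table at version 1.17.8) as log2(TPM + 1), with a trend (two-sided, Benjamini-Hochberg adjustment over all genes, threshold 0.05). The experiment was a fixed term. This scale understates the change of low genes. The contrast of all bitten libraries had its own model, and single groups came from 1 model of 5 groups. For the relative scale, each library's mean log2(TPM + 1) over the 12 shared genes was subtracted, and shared genes were not tested on it; its SEs are set largely by the spread of all genes. Named genes are the members, for other lists those called and the 3 with the highest mean TPM, and the 5 genes most like PVALB. Fits were tested on simulated data with 200 changed genes. Alternatives were pseudocount 0.1, no filter, median-of-ratios scaling, no experiment term, array weights, CK1 alone, leaving out each library, and another reference or a covariate. Python used numpy 2.4.6, pandas 2.3.3 and matplotlib 3.10.9.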

Additional observations from a re-analysis of the deposited data

How the results depend on the processing

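The bitten minus naive difference of the excess of the fast over the slow list kept its sign in 21 of 21 alternatives (-2.46 to -1.88, main value -2.15), and PVALB kept a negative sign in all that were run. PVALB missed the limma threshold without the filter on low values (-1.97, adjusted p = 0.0749), with median-of-ratios scaling (-2.09, adjusted p = 0.0512) and without the experiment term (-2.03, adjusted p = 0.159). Leaving out 1 library gave -2.21 to -1.68. The count of members called in bitten against naive skin, 1 in the report, was 0 under those 3 settings, 5 with array weights (0.614% of all genes called), 2 in CK1 alone (0.0957%) and 0 to 6 with 1 library left out. Relative to the shared genes the count of 0 became 26 with array weights, which did not converge and called 91.2% of all genes, 3 with the slow list as reference (0.0935%), and 0 to 12 with 1 library left out. PVALB on that scale was -2.08 with array weights and -1.60 to -1.03 with 1 library left out. In single groups the count of 0 became 11 for 2 bites without the experiment term (1.7% of all genes), and 1 for first exposure (0.0342%) and 1 for saliva immune against naive skin (0.0274%) in CK1 alone, with 0 to 1 in both when 1 library was left out. It became 4 of 41 for saliva immune against first exposure skin with array weights, where 14.5% of all genes were called, so the members were called no more often than the table. In an alternative added once the data had been seen, the shared mean as a covariate, 7 of 29 members and 97 genes in all (0.648%) were called in first exposure skin. The members called were 0 when any of 10 single libraries was left out, 7 without naive 3 (108 genes in all) and 19 without either 3 bites library (182 genes in all). The cause of these changes was not tested.

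No paired analysis was possible because the replicate numbers were given in accession order and pair no samples. The table holds no counts, so the precision of low values such as PRKAG3 in 2 bites skin is unknown. EF19-5 holds 1 naive library, and its contrasts rest on it.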
